A study of Mus musculus with 18 samples.

Results

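Of the 22 mitochondrial tRNA (mt-tRNA) genes, 9 are transcribed from the heavy strand of the mitochondrial genome and lie downstream of mt-Tm, that is, farther from the heavy-strand promoter. These promoter-distal genes are, in the order of transcription, mt-Tw, mt-Td, mt-Tk, mt-Tg, mt-Tr, mt-Th, mt-Ts2, mt-Tl2 and mt-Tt. They were chosen by strand and gene order and not by their levels. The table from which they were taken has 3574 entries. Their reads were expressed as a percentage of the reads of all 22 mt-tRNA genes of a mouse, hereafter the share. All 9 had a mean share above the minimum of 0.001% set for testing, and so did the other 13.

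The small RNA was measured by Hydro-tRNA-seq, in which RNA of 60 to 100 nt is cut from a gel and hydrolysed into short pieces before sequencing, so that modified and folded tRNAs can be copied. One library was made per mouse, from both hippocampi. The 18 mice were male, WT or 5xFAD on a B6SJL background, and 6 months old when the CA1 and the dentate gyrus were injected with adeno-associated virus. 5xFAD mice are a transgenic model of Alzheimer's disease, in which the neuronal Thy1 promoter drives the transgenes. All groups received the rAAV2/8 vector with an H1-driven shRNA and an RSV-driven GFP, with either a control hairpin (shCT) or one against RTP801 (shRTP801), a stress-induced protein encoded by Ddit4, and tissue was taken 4 weeks later. With shCT there were 5 WT and 3 5xFAD mice and with shRTP801 4 WT and 6 5xFAD mice, named below by the numbers of the labels. The tissue holds cells the virus did not reach, the mRNA of RTP801 is not measured in this table, and in bulk tissue fewer mitochondria and less RNA per mitochondrion cannot be told apart.

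The heavy strand of mitochondrial DNA is copied into a long polycistronic RNA that holds both rRNAs, most of the mRNAs and most of the tRNAs. The tRNAs punctuate this precursor: RNase P cuts at their front end and ELAC2 at their rear end, which frees the tRNAs together with the mRNAs between them. Each mt-tRNA then receives CCA and base modifications and serves the translation of the subunits of oxidative phosphorylation that mitochondria encode. A mature level therefore rests on processing and stability as well as on transcription, and distance from the promoter is only one of the features by which the genes differ.

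The number of mt-tRNA reads ranged from 624 to 13720344 per mouse, against 9850680 to 20292500 reads of mature cytosolic tRNAs. In 3 libraries it was under 100000, namely 624 in WT shCT mouse 5, 6013 in 5xFAD shRTP801 mouse 7 and 79078 in WT shRTP801 mouse 4, and no 5xFAD shCT library was among them. These 3 also stood apart in composition, since the promoter-proximal mt-Tl1 made up 8.503% to 26.4% of their mt-tRNA reads and 1.17% to 5.19% in the other 15. Their part in the results was not tested beyond leaving them out. The Wilson 95% interval of a member was at most 0.0757 percentage points wide to either side in the 15 other libraries and up to 3.82 in the low ones, which covers counting error only. The mt-rRNAs mt-Rnr1 and mt-Rnr2, of which only fragments can fall into the size range, gave 0.0235 to 0.267 and 0.0154 to 0.235 reads per 100 mt-tRNA reads in the 15 libraries.

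The distal genes held most of the mt-tRNA reads, and in every mouse more than all other members together came from a single tRNA, mt-Th. With shCT their summed share was 63.8% ± 6.19 in WT mice (SD, n = 5) and 67.1% ± 10.6 in 5xFAD mice (n = 3), and with shRTP801 it was 63.0% ± 8.45 in WT mice (n = 4) and 60.9% ± 10.5 in 5xFAD mice (n = 6). The 5 proximal genes of the same strand held 26.3% ± 7.04 and the 8 light-strand genes 10.6% ± 2.88 over the 18 mice. All groups overlapped, and the lowest summed share, 40.1%, was that of 5xFAD shRTP801 mouse 7, a low library. Without the 3 low libraries the means were 66.5% ± 1.32 (n = 4), 67.1% ± 10.6 (n = 3), 62.4% ± 10.2 (n = 3) and 65.0% ± 2.90 (n = 5) in the same order, so the spread in WT shCT and 5xFAD shRTP801 mice came largely from 1 library each. When mt-Th was left out of both the numerator and the total, the other 8 distal tRNAs held 23.5%, 19.8%, 18.3% and 25.2% of the remaining mt-tRNA reads in the same order of groups.

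**Figure D1:**
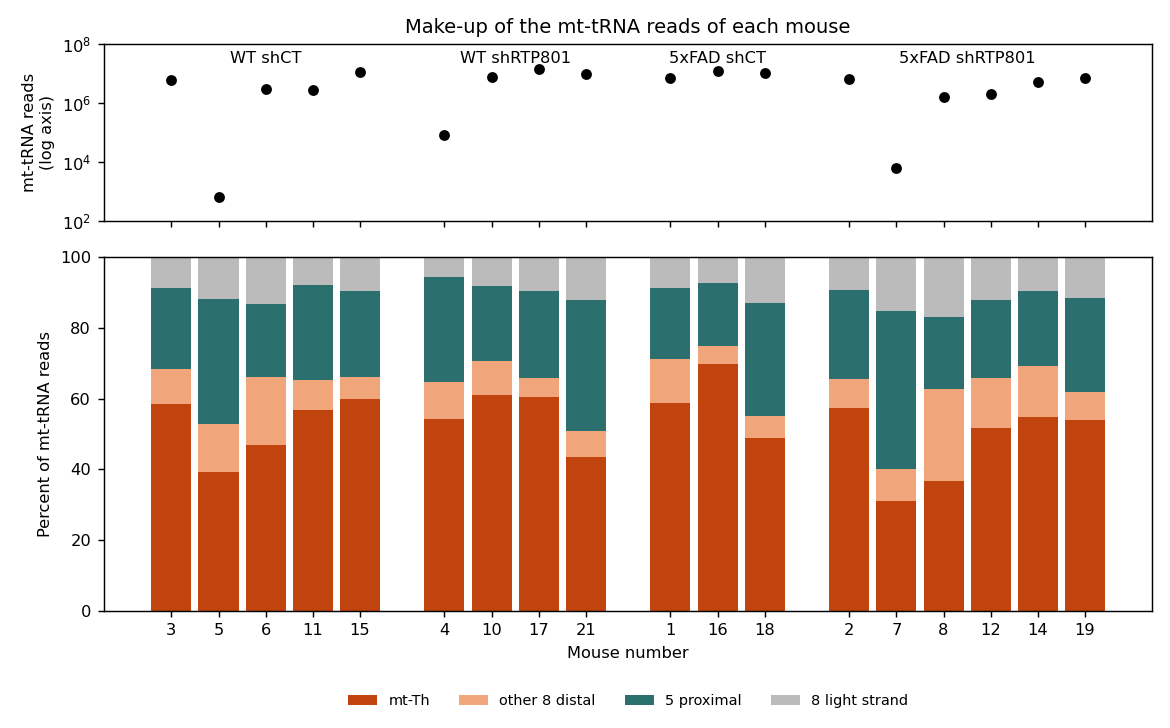
Share of the mt-tRNA reads (y axis, percent) taken by mt-Th, the other 8 distal, the 5 proximal and the 8 light-strand mt-tRNAs, in stacked bars of 1 mouse each, grouped by genotype and shRNA, under a panel with the number of mt-tRNA reads of each mouse (log axis). mt-Th fills 30.9% to 69.8% of every bar, and the bars of mice 5 and 7 have the smallest distal part within their groups.

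mt-Th, the histidine tRNA, which lies between ND4 and mt-Ts2, was the highest of the 22 mt-tRNAs in all 18 mice. Its share was 58.6%, 39.3%, 47.0%, 56.7% and 60.0% in WT shCT mice 3, 5, 6, 11 and 15. It was 54.4%, 61.0%, 60.6% and 43.6% in WT shRTP801 mice 4, 10, 17 and 21, and 58.9%, 69.8% and 48.8% in 5xFAD shCT mice 1, 16 and 18. In the 6 5xFAD shRTP801 mice it ran from 30.9% (mouse 7) over a median of 52.9% to 57.5% (mouse 2). The highest value was thus that of a 5xFAD shCT mouse and the lowest that of a low library, and the groups overlapped in every comparison. Within the distal genes mt-Th accounted for a median of 85.6% of the reads (58.5% to 93.2%). The next highest mt-tRNA was the proximal mt-Tv, the valine tRNA between the rRNA genes, in 16 of 18 mice, and per length mt-Th exceeded mt-Tv by a median of 3.03-fold (1.36 to 4.91).

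The high level of mt-Th was not shared by its neighbours. mt-Ts2 and mt-Tl2 follow mt-Th on the genome with no protein gene between them, according to the RefSeq annotation. mt-Ts2 is the serine tRNA for AGY codons, which lacks a D-arm, and mt-Tl2 is the leucine tRNA for CUN codons. With reads divided by gene length, mt-Th was a median of 133-fold above mt-Ts2 (24.0 to 1464 over 18 mice) and 283-fold above mt-Tl2 (141 to 413). The ratio to mt-Tl2 therefore stayed within a narrow range, whereas that to mt-Ts2 did not. Its extreme was 5xFAD shRTP801 mouse 12, in which mt-Ts2 had a share of 0.0311%, the lowest of all mice. The gene of mt-Ts2 is 59 nt long, without the added CCA, and so lies at the lower limit of the 60 to 100 nt gel cut. The part of the cut in the level of mt-Ts2 was not tested.

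Per length, the order of the mean levels of the distal genes was mt-Th, mt-Tt, mt-Tw, mt-Tk, mt-Tg, mt-Ts2, mt-Td, mt-Tl2 and mt-Tr, and it did not follow the distance from the promoter. mt-Tt, the last tRNA of the strand, ranked 3 among the 22, and mt-Tr, which comes directly before mt-Th among the tRNAs of the strand, ranked 21. Only mt-Th and mt-Tt had ranges that did not overlap over the 18 mice. All other neighbours in the order had overlapping ranges and overlapping bars of mean ± 1 SD. Within single mice, however, mt-Tt was above mt-Tw in 17 of 18, mt-Tw above mt-Tk in 17 and mt-Tl2 above mt-Tr in 17. For mt-Tk over mt-Tg, mt-Tg over mt-Ts2 and mt-Ts2 over mt-Td the order held in only 12, 11 and 12 mice. The proximal genes had no single level either, since mt-Tv ranked 2 and mt-Tf, the first gene of the strand, ranked 17. Lengths came from the RefSeq gene table for GRCm38.p6, in which all 22 genes were found and the distal ones were 59 to 71 nt long. The submitters' notes name mm39, so no coordinates are given.

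**Figure D2:**
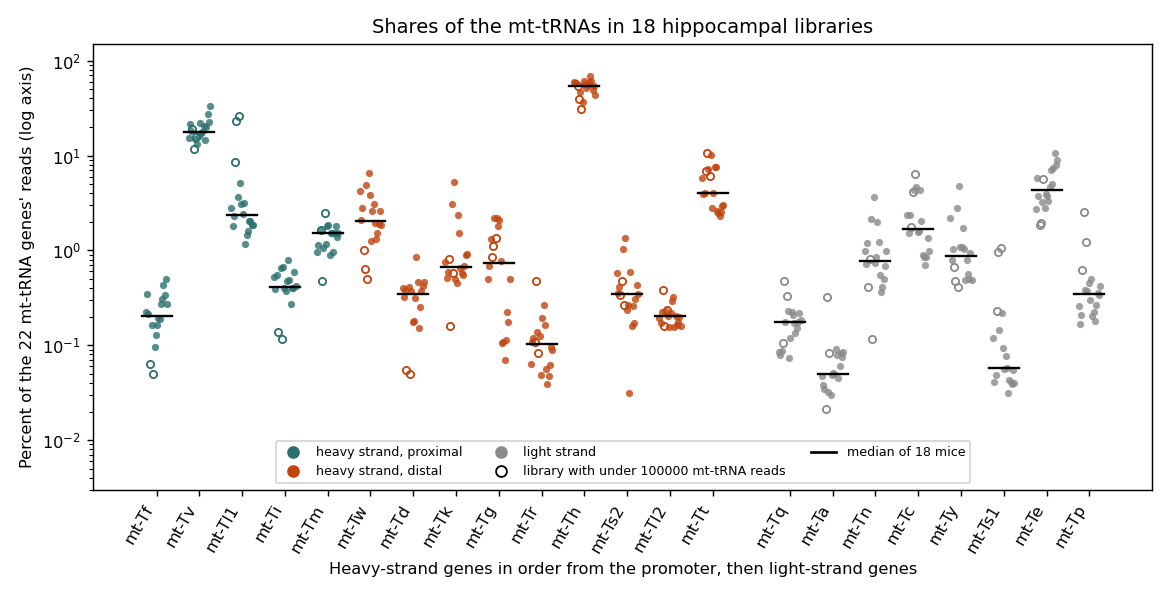
Share of the mt-tRNA reads (y axis, percent, log scale) of each of the 22 mt-tRNAs in each of the 18 mice, with the genes placed along the x axis by strand class and gene order. mt-Th stands above all others at 30.9% to 69.8% and mt-Tr is lowest of the distal genes with a median of 0.102%. A mouse with 0 reads of a gene, such as mouse 5 for mt-Td, has no point on the log axis, lines are medians and open points are the 3 libraries with under 100000 mt-tRNA reads.

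The members differed widely in how much they varied between mice. Over the 15 larger libraries, mt-Th spanned 1.90-fold from the lowest to the highest mouse and mt-Tl2 2.07-fold, with coefficients of variation of 14.9% and 23.8%. mt-Tt, mt-Tw, mt-Td and mt-Tr spanned 4.33-, 5.17-, 5.62- and 6.78-fold. mt-Tk, mt-Tg and mt-Ts2 spanned 11.6-, 31.9- and 43.5-fold, with coefficients of variation of 103.6%, 97.2% and 80.0%, far beyond counting error in libraries of this depth. The span of mt-Ts2 rests on mouse 12 and was 8.57-fold without it. A large part of the high end came from a pair of mice in different groups: 5xFAD shRTP801 mouse 8 was highest and WT shCT mouse 6 second in 4 of the 9, mt-Tw, mt-Tk, mt-Tg and mt-Ts2.

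Each group comparison was tested by limma on log2(share + 0.001%), with all 22 mt-tRNAs in 1 fit and Benjamini-Hochberg adjustment over the 22. It called none of the 9 in 5xFAD shCT against WT shCT, 5xFAD shRTP801 against 5xFAD shCT, WT shRTP801 against WT shCT or 5xFAD shRTP801 against WT shRTP801, nor for the interaction of genotype and shRNA. The share of the 22 that was called was 0% in each. At an unadjusted limma p under 0.05, 1 of the 22 passed in each of the 4 comparisons (4.55%) and 2 in the interaction (9.09%). The member that passed was mt-Tr each time, except in 5xFAD shRTP801 against WT shRTP801, where no member did. DESeq2 on the recovered reads called 0 of the 9 in all of them. edgeR's quasi-likelihood test called 1, mt-Th, in 3 of them, with a background of 4.55% of the 22. These comparisons share groups of mice, so their calls are not separate pieces of evidence. In simulated data all genes had the same dispersion, 0.406, the common value edgeR estimated. Of features at or below a 1% share, 18.5% were then recovered at a log2 change of 2 between 5xFAD shCT and WT shCT. At a dispersion of 0.1 it was 81.5%, and the real members differ in spread. A count of 0 therefore says little about changes of this size as well as smaller ones. Genes above a 1% share, mt-Th among them, were not changed in the simulation.

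Taken as a list, the distal genes held members that went either way in each comparison. Their median log2 change was -0.03 in 5xFAD shCT against WT shCT (4 higher, 5 lower), beside -0.07 over all 22, the 9 included. In 5xFAD shRTP801 against 5xFAD shCT it was 0.28 (7 higher, 2 lower), beside 0.29. In WT shRTP801 against WT shCT it was -0.02 (4 higher, 5 lower), beside -0.12, and in 5xFAD shRTP801 against WT shRTP801 it was 0.33 (8 higher, 1 lower), beside 0.30. The 5 proximal genes had medians of 0.10, 0.17, 0.44 and 0.01 and the 8 light-strand genes of -0.59, 0.59, -0.49 and 0.59 in the same order, with none called. The member counted as lower among 8 higher ones in the last comparison was mt-Th, and since shares sum to 100%, a lower mt-Th raises the shares of the rest.

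mt-Tr, the arginine tRNA between ND3 and ND4L and the rarest of the distal genes, gave the lowest limma p of the members for the interaction, in 5xFAD shCT against WT shCT, in 5xFAD shRTP801 against 5xFAD shCT and in WT shRTP801 against WT shCT. Its share was 0.118%, 0.481%, 0.137%, 0.194% and 0.0558% in WT shCT mice 3, 5, 6, 11 and 15. It was 0.109%, 0.0485%, 0.0469% and 0.0899% in WT shRTP801 mice 4, 10, 17 and 21, and 0.0638%, 0.0388% and 0.0617% in 5xFAD shCT mice 1, 16 and 18. The 6 5xFAD shRTP801 mice ran from 0.0832% (mouse 7) over a median of 0.118% to 0.263% (mouse 12). All 6 5xFAD shRTP801 mice were therefore above all 3 5xFAD shCT mice, while every other pair of groups compared overlapped. mt-Tr was the only one of the 22 whose groups did not overlap in this comparison, a background of 4.55%. The highest value, that of WT shCT mouse 5, rests on 3 reads (Wilson 95% interval 0.164% to 1.404%), and that of 5xFAD shRTP801 mouse 7 on 5.

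The log2 change of mt-Tr was 1.26 ± 0.55 (SE) in 5xFAD shRTP801 against 5xFAD shCT, with group means of 0.140% ± 0.0662 (SD, n = 6) and 0.0547% ± 0.0139 (n = 3), and adjusted p = 0.619 in limma. The exact two-sided permutation test of the percentage gave p = 0.0595 and that of the log2 share p = 0.0238, both unadjusted (0.711 and 0.524 after adjustment over the 22), and the smallest p that 6 against 3 mice allow is 0.0119. In 5xFAD shCT against WT shCT (0.197% ± 0.166, n = 5) the change was -1.504 ± 0.57 (limma, adjusted p = 0.370, exact permutation p of the log2 share 0.0893), and in WT shRTP801 (0.0735% ± 0.0308, n = 4) against WT shCT it was -1.15 ± 0.52 (limma, adjusted p = 0.783, exact permutation p 0.0952). In 5xFAD shRTP801 against WT shRTP801 it was 0.90 ± 0.50 (limma, adjusted p = 0.817, exact permutation p 0.0524). As a share, the fitted change with shRTP801 pointed down in WT and up in 5xFAD mice, and the interaction, the difference between them, was 2.41 ± 0.76 (limma, adjusted p = 0.122, from 0.0223 to 0.890 over the alternatives). On the deposited normalized counts, without division by the mt-tRNA total, the signs turned, with 0.57 in WT mice, -1.37 in 5xFAD mice and -1.94 for the interaction, beside medians of 1.42, -2.37 and -3.86 over all 22. Without the 3 low libraries these values were -0.05, 0.08 and 0.13, beside medians of 0.69, -0.90 and -1.64.

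The interaction of mt-Tr was past the threshold without WT shCT mouse 15, the lowest of its group (2.77, limma, adjusted p = 0.0223), and without the 3 low libraries (2.34 ± 0.62, limma, adjusted p = 0.0425). Without the low libraries the means with shCT were 0.126% ± 0.0570 in WT (n = 4) and 0.0547% ± 0.0139 in 5xFAD mice (n = 3), and those with shRTP801 were 0.0618% ± 0.0244 in WT (n = 3) and 0.151% ± 0.0672 in 5xFAD mice (n = 5). It was smaller when the log2 shares were centred on the median of the 22 in each mouse (1.17 ± 0.85, limma, adjusted p = 0.514) and in edgeR's quasi-likelihood test (1.48, adjusted p = 0.308). The low libraries are 1 each in 3 groups, and mt-Tr had no more than 86 reads in any of them.

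**Figure D3:**
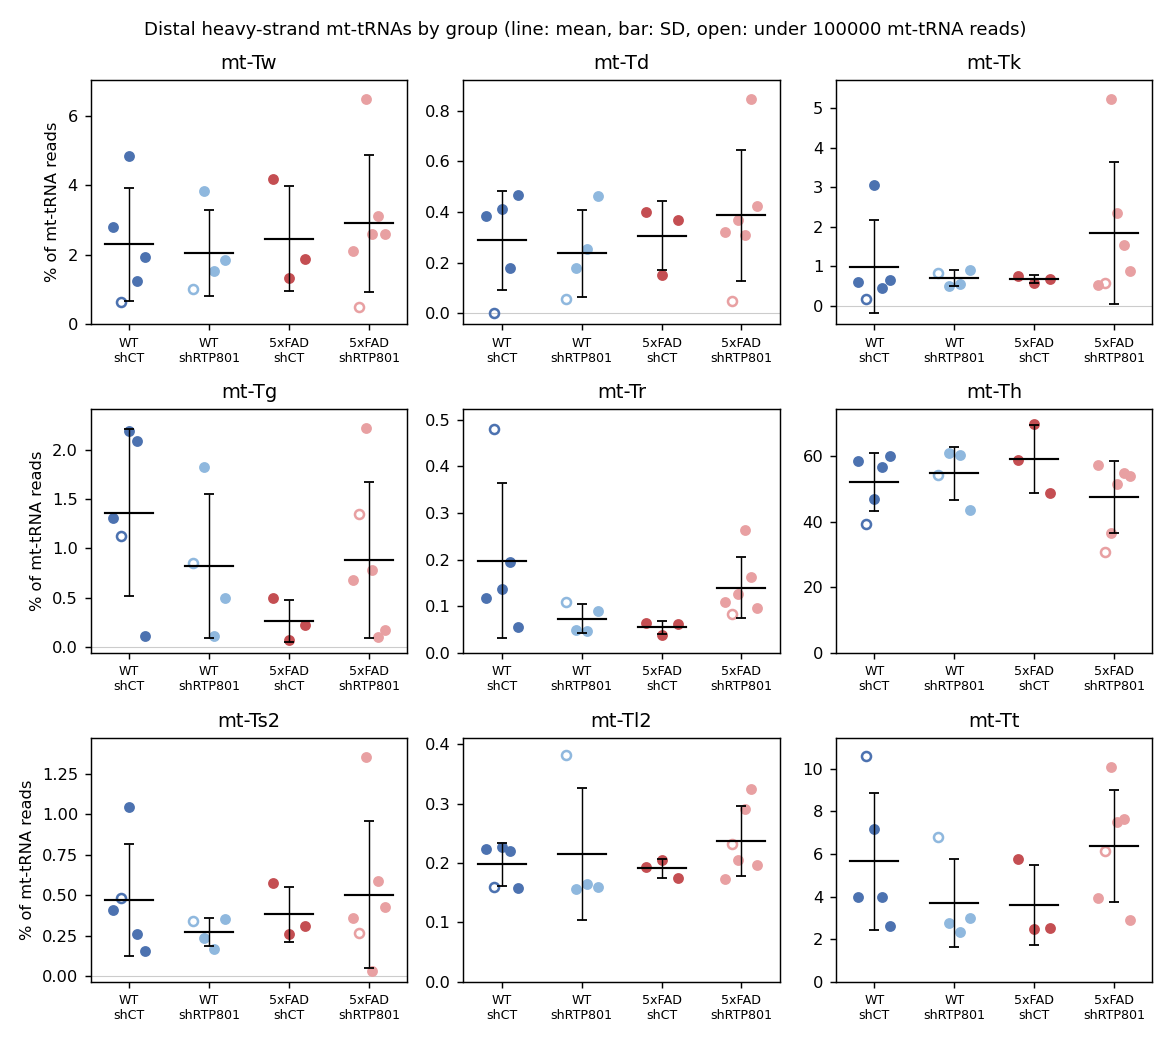
Share of the mt-tRNA reads (y axis, percent) of each of the 9 distal mt-tRNAs in its own panel, with a point per mouse in each of the 4 groups, a line at the group mean and bars for the SD. Open points are libraries with under 100000 mt-tRNA reads. In the mt-Tr panel the 5xFAD shRTP801 points, 0.0832% to 0.263%, lie above the 5xFAD shCT points, 0.0388% to 0.0638%, while the other panels overlap in this pair of groups.

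For mt-Th the log2 changes were small under limma: 0.18 ± 0.31 in 5xFAD shCT against WT shCT (95% interval -0.47 to 0.84, adjusted p = 0.892), -0.33 ± 0.30 in 5xFAD shRTP801 against 5xFAD shCT (-0.97 to 0.30, adjusted p = 0.851), and 0.08 ± 0.28 and -0.23 ± 0.27 for the other comparisons of WT shRTP801 with WT shCT and of 5xFAD shRTP801 with WT shRTP801. edgeR's quasi-likelihood test, which scales the reads by TMM factors of the 22 genes instead of their total, gave 0.94 for the first (adjusted p = 0.0178), -1.05 for the second (adjusted p = 0.00349) and -1.34 for the interaction (adjusted p = 0.00978), where limma gave -0.41 (adjusted p = 0.776). The mean share of mt-Th was 52.3% ± 8.89 in WT shCT, 59.2% ± 10.5 in 5xFAD shCT and 47.6% ± 11.01 in mice of the 5xFAD shRTP801 group, with overlapping ranges. Without the 3 low libraries it was 55.6% ± 5.86 (n = 4), 59.2% ± 10.5 (n = 3) and 51.0% ± 8.23 (n = 5) in the same order. DESeq2, with its own size factors, gave 0.47 (adjusted p = 0.936) and -0.78 (adjusted p = 0.653). The direction was the same in every setting tried for 5xFAD shCT against WT shCT, 5xFAD shRTP801 against 5xFAD shCT and the interaction. So it was for 5xFAD shRTP801 against WT shRTP801, in which edgeR called no gene. Among the settings were the deposited normalized counts, on which the median of the 22 moved too. In 5xFAD shCT against WT shCT, however, the change was only 0.008 with mt-tRNA content as a covariate (limma). Scaling, input and test differ together between edgeR and limma, and the cause of the call was not tested.

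mt-Tg, the glycine tRNA between COX3 and ND3, had the largest fitted difference between 5xFAD shCT and WT shCT of the 9, a log2 change of -2.23 ± 1.15 (limma, adjusted p = 0.766, exact permutation p of the log2 share 0.125). Its share was 1.31%, 1.12%, 2.20%, 2.09% and 0.108% in WT shCT mice 3, 5, 6, 11 and 15, and 0.497%, 0.0695% and 0.226% in 5xFAD shCT mice 1, 16 and 18. In WT shRTP801 mice 4, 10, 17 and 21 it was 0.852%, 1.83%, 0.114% and 0.497%, and in the 5xFAD shRTP801 mice it ran from 0.105% (mouse 14) over 0.729% to 2.22% (mouse 8). The group means were 1.36% ± 0.845 (n = 5), 0.264% ± 0.216 (n = 3), 0.823% ± 0.734 (n = 4) and 0.884% ± 0.795 (n = 6), and all groups overlapped. The share of mt-Tg went with the mouse numbers: the 7 mice numbered 14 and above, from all 4 groups, had 0.0695% to 0.49701% and the 11 others 0.49725% to 2.22%. These 7 included 2 of the 3 5xFAD shCT, 1 of the 5 WT shCT, 2 of the 4 WT shRTP801 and 2 of the 6 5xFAD shRTP801 mice. The reads of all table rows split the same way, with 43820300 to 89228300 in these 7 and 18527900 to 39259200 in the 11 others. Of the 7 lowest mice, those numbered 14 and above were 6 for mt-Tt and 4 each for mt-Tr and mt-Tl2. They were 3 each for mt-Tw and mt-Ts2 and 2 each for mt-Td, mt-Tk and mt-Th, with 7 of all 18 mice so numbered. With this split as a term in the limma fit, the change of mt-Tg was -0.90 ± 0.62 (adjusted p = 0.9998), that of mt-Tr was -1.26 ± 0.57 (adjusted p = 0.938) and that of mt-Tt -0.22 ± 0.48 (adjusted p = 0.9998) in 5xFAD shCT against WT shCT. The interaction of mt-Tr was then 2.08 ± 0.76 (limma, adjusted p = 0.340). The split was chosen after the values were seen, and it parts those of mt-Tg without overlap. The 7 hold 2 of the 3 5xFAD shCT but 1 of the 5 WT shCT mice. A smaller change of mt-Tg with this term was therefore built in and is no test of the mouse numbers. What the numbers stand for is not given in the sources used here. In 5xFAD shRTP801 against 5xFAD shCT the change of mt-Tg was 1.48 ± 1.12 (limma, adjusted p = 0.851).

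mt-Tt, the threonine tRNA after CYTB and the second highest of the distal genes, had shares of 3.99%, 10.6%, 7.15%, 4.00% and 2.60% in WT shCT mice 3, 5, 6, 11 and 15 and of 6.79%, 2.77%, 2.33% and 2.99% in WT shRTP801 mice 4, 10, 17 and 21. In 5xFAD shCT mice 1, 16 and 18 it was 5.76%, 2.46% and 2.54%, and in 5xFAD shRTP801 mice it ran from 2.91% (mouse 19) over 6.82% to 10.1% (mouse 8). The groups overlapped in every comparison. The fitted changes had the same signs as those of mt-Tr: -0.60 ± 0.53 in 5xFAD shCT against WT shCT, 0.83 ± 0.52 in 5xFAD shRTP801 against 5xFAD shCT, -0.57 ± 0.49 in WT shRTP801 against WT shCT, and 1.39 ± 0.71 for the interaction (limma, adjusted p = 0.495). mt-Tg and the light-strand mt-Tc, among others, had these signs too, so the pattern was not particular to mt-Tr and mt-Tt. The interaction of mt-Tc was 2.21 ± 0.84 (limma, adjusted p = 0.201). Over the 18 mice mt-Tt was the mt-tRNA whose share went most closely with that of mt-Tr (Spearman's rho 0.84, and 0.86 in the 15 larger libraries). Since the shares have a common denominator, this is a description.

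mt-Tw, mt-Td and mt-Tk serve tryptophan, aspartate and lysine. mt-Tw reads both UGA and UGG in mitochondria, and mt-Tk and mt-Tw carry taurine-containing bases at the wobble position. mt-Tw ran from 0.499% to 6.48%, and the 3 low libraries were the 3 lowest of the 18 mice. mt-Td ran from 0.0499% to 0.845% in 17 mice and had 0 of 624 reads in WT shCT mouse 5, which allows a share of up to 0.481% by the limit of 3 reads and of 0.612% by the Wilson 95% interval. The low libraries held the lowest values of mt-Td too, and its change in 5xFAD shCT against WT shCT, 1.41 ± 1.55 (limma, adjusted p = 0.777), turned to -0.27 ± 0.80 without that mouse. mt-Tk ran from 0.160% to 5.24%. The 6 5xFAD shRTP801 mice had the highest mean, 1.85% ± 1.80, but their lowest, 0.508% in mouse 2, was below all 3 5xFAD shCT mice (0.578% to 0.761%), and the change was 0.96 ± 0.77 (limma, adjusted p = 0.851).

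mt-Tl2 was the steadiest of the rare tRNAs, with group means of 0.198% ± 0.0358 in WT and 0.191% ± 0.0159 in 5xFAD mice given shCT, and of 0.216% ± 0.111 in WT and 0.237% ± 0.0587 in 5xFAD mice given shRTP801. With all 18 mice its largest fitted change was 0.28 ± 0.34 in 5xFAD shRTP801 against 5xFAD shCT, with a 95% interval of -0.44 to 0.997. Without low library mouse 4, mt-Tl2 had a mean of 0.160% ± 0.0039 in WT shRTP801 mice (n = 3). Its change in 5xFAD shRTP801 against WT shRTP801 then went from 0.22 to 0.53 (limma). mt-Ts2, its neighbour, had means of 0.471% ± 0.345, 0.381% ± 0.170, 0.273% ± 0.0867 and 0.503% ± 0.454 in the same order. Its intervals were wide, from -1.95 to 1.74 in 5xFAD shCT against WT shCT and from -1.96 to 1.61 in 5xFAD shRTP801 against 5xFAD shCT, so changes of several-fold in either direction were not detectable here.

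**Figure D4:**
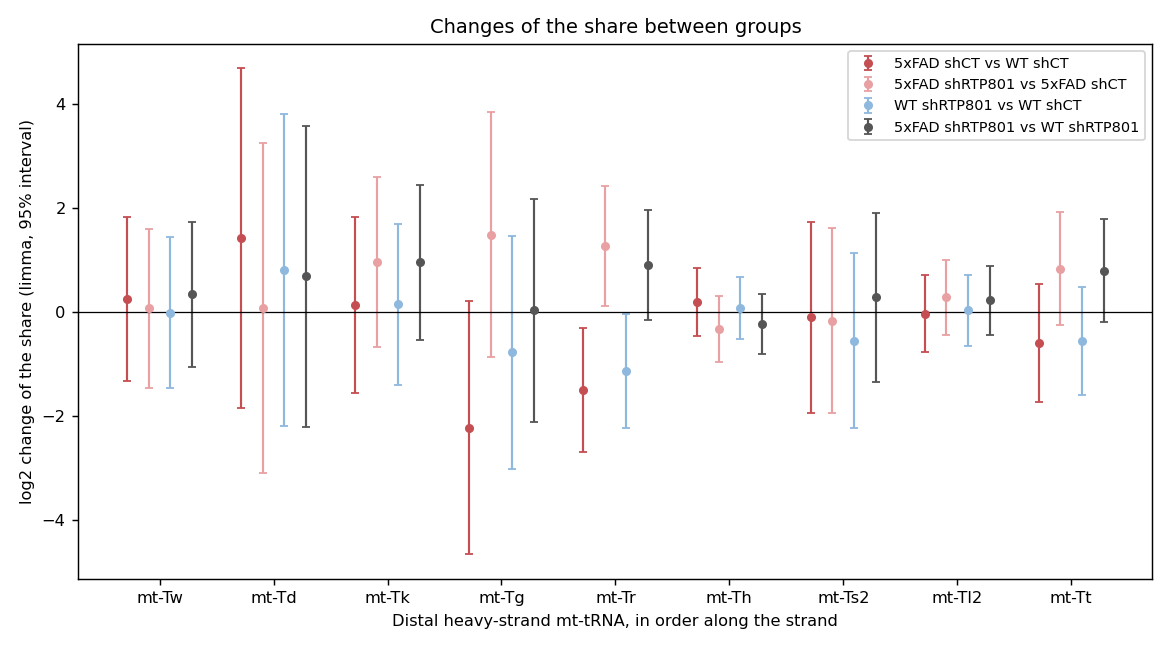
Log2 change of the share (y axis) of the 9 distal mt-tRNAs (x axis, in gene order) in the 4 comparisons, with bars for the 95% intervals of the limma fit over 18 mice. Of the 9, mt-Tr has intervals that leave out 0 in 3 comparisons, at 1.26, -1.504 and -1.15, and no change passes after adjustment over the 22 mt-tRNAs.

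For most distal genes the mt-tRNA with the closest pattern over mice was not a distal one. The distal genes are, however, a minority of the 22, and correlations with each class as a whole were not compared. The mt-tRNA with the most similar share over the 18 mice was a proximal gene for mt-Tw, mt-Td and mt-Tk (mt-Ti, rho 0.88, 0.83 and 0.72), for mt-Tg (mt-Tl1, 0.78) and for mt-Th (mt-Tf, 0.43). It was a light-strand gene for mt-Tl2 and mt-Tt (mt-Tc, 0.51 and 0.88), and a distal gene only for mt-Tr and mt-Ts2 (mt-Tt, 0.84 and 0.57). In the 15 larger libraries the closest gene was another one for mt-Tk (mt-Tq, 0.83), mt-Ts2 (mt-Ti, 0.66), mt-Tl2 (mt-Tr, 0.73) and mt-Tt (mt-Tn, 0.94). mt-Th stood apart, with a median rho of -0.43 with the other 8 distal genes. For the remaining members this median was positive, from 0.03 (mt-Td) to 0.44 (mt-Tt). In the 15 larger libraries it ran from 0.23 (mt-Tg) to 0.60 (mt-Tt). All points share a denominator and a library, and mt-Th makes up most of that denominator.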

How the data were processed

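Hydro-tRNA-seq libraries of 18 mice in 4 groups were analysed from 1 table of normalized read counts. The authors hydrolysed RNA of 60 to 100 nt, sequenced it, counted reads with tRAX and deposited counts divided by a size factor per library, a signal. The version and the aligner are not given in the sources used here, and the submitters' processing notes name mm39. Modified bases, gel cuts and hydrolysis can change how well each tRNA is read, so levels of different tRNAs carry such differences.

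Dividing by the smallest non-zero value of a library gave whole numbers (within 0.01) for 100% of values, taken as reads. Whether the counting used strand is not given. Shares of the 22 mt-tRNA rows were tested by limma 3.58.1 (R 4.3.3) on log2(share + 0.001%), with 4 group means, Benjamini-Hochberg adjustment over 22 and a threshold of 0.05. Fold changes are on that scale, which understates changes of the rarest tRNAs where all mice have reads. Where a small library has 0 reads, it can overstate them. In WT shCT mouse 5, 1 read is 0.160%, while 0 reads of mt-Td enter as 0.001%. edgeR 4.0.16, DESeq2 1.42.0, exact two-sided permutation tests (scipy 1.17.1), other denominators, scalings and pseudocounts, RIN, mt-tRNA content and mouse number (14 and above) as covariates, and leaving out mice were alternatives. The limma step was tested on simulated data. Wilson 95% intervals cover counting error only, as the reads carry no molecular identifiers, and a count of 0 was set against 3 reads. Mice are taken as separate animals from the labels.

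The named genes were the 9 members, the most similar mt-tRNA of each by Spearman's rho, any other mt-tRNA called, and mt-Rnr1 and mt-Rnr2. The members and lists were chosen with earlier results of these data known. Strand classes follow the known mouse gene order. No tRNA sequence is shown, as the reference tables used here hold none.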

Additional observations from a re-analysis of the deposited data

Results flagged for a closer look

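In each group of 4 to 6 mice, the highest and lowest value of each of the 9 members and of their sum was compared with the rest by Dixon's criterion. Of 30 groups examined, 5 stood out. The criterion is set at about 1 in 20 for separate, normally distributed values. The 30 share mice and a denominator, and the sum holds the members, so an excess over chance was not tested. WT shCT mouse 6 had 3.06% of mt-Tk, against 0.654% in the next mouse. WT shRTP801 mouse 4 had 0.382% of mt-Tl2 against 0.164%, and 6.79% of mt-Tt against 2.99%. The summed share of the 9 was lowest in WT shCT mouse 5, at 52.9% against 65.3%, and in 5xFAD shRTP801 mouse 7, at 40.1% against 61.8%. Mice 4, 5 and 7 are the libraries with under 100000 mt-tRNA reads, and mouse 6 had 3024732.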

How the results depend on the processing

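No paired analysis was possible because the groups share no mouse number. Across the comparisons and the interaction, the alternatives gave 1588 estimates of member changes, of which 197 differed in sign from the value reported and 5 passed the threshold. Leaving out 1 mouse at a time gave 810 of these estimates, with 46 of the sign changes and 1 of the 5. The number of distal mt-tRNAs called moved from 0 to 1 under edgeR's quasi-likelihood test in 5xFAD shCT against WT shCT, in 5xFAD shRTP801 against 5xFAD shCT and for the interaction (mt-Th, adjusted p = 0.0178, 0.00349 and 0.00978), and the cause was not tested. For the interaction it was also 1 without the mice under 100000 mt-tRNA reads (mt-Tr), an alternative chosen after seeing the data, and 0 to 1 when leaving out 1 mouse, with 1 only without WT shCT mouse 15. In the 4 comparisons it stayed at 0 whichever mouse was left out. The summed share was 71.0% in WT shCT mice as a percentage of the 14 heavy-strand genes, and with mt-Th left out, by construction, it was 23.5% in WT and 19.8% in 5xFAD mice given shCT and 18.3% in WT and 25.2% in 5xFAD mice given shRTP801. On the deposited normalized counts, without division by the mt-tRNA total, the median of all 22 moved by 2.9998, -2.37, 1.42 and -0.98 (log2) in 5xFAD shCT against WT shCT, 5xFAD shRTP801 against 5xFAD shCT, WT shRTP801 against WT shCT and 5xFAD shRTP801 against WT shRTP801. Without the 3 low libraries, WT shCT mouse 5, WT shRTP801 mouse 4 and 5xFAD shRTP801 mouse 7, these shifts were 0.66, -0.90, 0.69 and -0.96 (added after seeing the data). The last of them thus hardly changed, while the others became smaller. With all mice mt-Tr changed by 1.58, -1.37, 0.57 and -0.35, below that shift, above it, below it and above it, and none was called. Its interaction was -1.94 beside a median of -3.86. Depth limits the low libraries, in which mt-Tr had 3 to 86 reads.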
